A study of Mus musculus with 6 samples.

Results

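The genes described here are 10 genes that pro-B and pre-B cells use to rearrange and test the immunoglobulin heavy chain: Rag1, Rag2, Dntt, Igll1, Vpreb1, Vpreb2, Vpreb3, Ebf1, Pax5 and Il7r. They were taken by symbol from the 46603 genes of the count files, and all 10 were present and passed the filter on low counts. RNA was sequenced from whole bone marrow of 3 mice that lack nuclear myosin 1 (labelled NM1 KO) and 3 that carry it (NM1 WT, wild type), all C57/Bl6 and 8 months old. Nuclear myosin 1 is an isoform of the class I myosin gene Myo1c. Each library came from the femurs and tibiae of a single animal, and no B lineage cells were sorted, so a lower level in these data may be fewer cells or less RNA per cell, which cannot be told apart.

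Developing B cells in the marrow cut and rejoin the V, D and J segments of the heavy chain locus with the recombinase made of RAG1 and RAG2, while terminal transferase, the product of Dntt, adds untemplated bases at the joins. A productive heavy chain then pairs with the surrogate light chain, made of the Igll1 product lambda 5 and a VpreB protein, to form the pre-B cell receptor (pre-BCR). The transcription factors EBF1 and PAX5 set up and hold B cell identity, and the interleukin 7 receptor carries the survival and growth signal of pro-B cells.

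Library totals were 21101616 to 22618802 counts in NM1 KO and 15145052 to 17580660 counts in NM1 WT, so every NM1 KO library was deeper. Levels are given as CPM, counts scaled to a common library size with TMM factors, and 1 CPM stood for 14.7 to 23.0 counts. NM1 WT 2 stood apart from the other wild types: across tested genes its log2 CPM correlated at 0.969 with NM1 KO 1 and at 0.957 with each of NM1 WT 1 and NM1 WT 3. Y-linked transcripts were present in NM1 KO 1, NM1 KO 2 and NM1 WT 2 and at 0 counts in the other 3 libraries, which instead had 269 to 300 CPM of Xist. The labels give no sex. Myo1c had 59.1 to 73.8 CPM in the NM1 KO mice and 89.8 to 115 CPM in the NM1 WT mice, a total over all isoforms, which is no test of whether the nuclear one is missing.

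The promoter windows of the recombinase genes, of Igll1 and of the near-identical pair Vpreb1 and Vpreb2 are shown because the levels of Rag1, Rag2 and Igll1 did not overlap between genotypes and because reads of the pair are hard to tell apart. Each runs from 250 bases before to 50 bases after the RefSeq start site (GRCm38.p6), 5′ to 3′ on the gene's strand, with capitals marking every match to the E-box CANNTG, the letters bound by the E proteins that act with EBF1 in early B cells.
Rag1 promoter, chr2:101649483-101649782, strand -: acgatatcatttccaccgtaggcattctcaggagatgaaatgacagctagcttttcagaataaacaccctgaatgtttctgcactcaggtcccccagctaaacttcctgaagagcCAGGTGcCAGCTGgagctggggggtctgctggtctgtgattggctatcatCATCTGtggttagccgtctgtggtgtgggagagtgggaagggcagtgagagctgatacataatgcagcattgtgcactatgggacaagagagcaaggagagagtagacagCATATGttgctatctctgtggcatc
Rag2 promoter, chr2:101624462-101624761, strand +: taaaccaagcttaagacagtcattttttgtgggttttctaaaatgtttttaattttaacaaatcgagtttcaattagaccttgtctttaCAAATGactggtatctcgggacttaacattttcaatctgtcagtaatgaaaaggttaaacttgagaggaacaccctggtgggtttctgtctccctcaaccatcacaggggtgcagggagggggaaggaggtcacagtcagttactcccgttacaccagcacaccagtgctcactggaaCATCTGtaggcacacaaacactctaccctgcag
Igll1 promoter, chr16:16863936-16864235, strand -: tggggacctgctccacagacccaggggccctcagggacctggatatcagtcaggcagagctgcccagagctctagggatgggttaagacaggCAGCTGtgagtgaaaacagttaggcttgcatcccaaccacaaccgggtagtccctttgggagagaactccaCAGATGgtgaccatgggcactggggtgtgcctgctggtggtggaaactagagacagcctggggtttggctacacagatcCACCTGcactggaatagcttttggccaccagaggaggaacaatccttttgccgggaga
Vpreb1 promoter, chr16:16869206-16869505, strand -: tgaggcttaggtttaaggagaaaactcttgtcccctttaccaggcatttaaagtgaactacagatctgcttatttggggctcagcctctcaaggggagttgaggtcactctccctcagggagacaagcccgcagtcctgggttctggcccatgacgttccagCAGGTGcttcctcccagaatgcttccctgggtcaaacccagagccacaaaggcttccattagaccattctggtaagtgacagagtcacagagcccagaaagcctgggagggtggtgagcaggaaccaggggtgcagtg
Vpreb2 promoter, chr16:17980315-17980614, strand +: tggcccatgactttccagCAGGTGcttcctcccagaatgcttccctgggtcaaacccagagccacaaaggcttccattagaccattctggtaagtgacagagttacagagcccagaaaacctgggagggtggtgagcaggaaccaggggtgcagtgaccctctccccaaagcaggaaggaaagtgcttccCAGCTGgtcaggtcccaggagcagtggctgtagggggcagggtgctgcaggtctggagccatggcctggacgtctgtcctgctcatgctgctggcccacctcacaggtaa
All 10 genes had a window in the RefSeq table, and Ebf1 had a second one. CANNTG, read on both strands, lay in 10 of these 11 windows, all but 1 of those of Ebf1, and so in a window of all 10 genes. CANNTG lay in 72.3% of 32841 promoter windows of the same length. Its form CAGGTG, which overlaps it, lay in 4 of the 11 windows, those of 4 of the 10 genes, and in 20.2% of all windows. It started 135 bases before the start site in Rag1, 8 before in Igll1, 88 before in Vpreb1 and 232 before in Vpreb2. The Vpreb1 and Vpreb2 copies lie in a near-identical stretch of the windows, so they are not independent. In Vpreb1 and Vpreb2 the RefSeq start lies inside the gene as annotated. On its own strand Vpreb1 begins at 16870843, and Vpreb2 begins at 17980428. The distances of both hold for the RefSeq start alone and cannot be set beside each other. The EBF1 core CCCNNGGG lay in 1 of the 11 windows, that of Igll1, and in 13.7% of all windows. These matches describe letters, and binding at them was not tested.

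The recombinase genes had the largest differences of the 10, each about 2-fold higher in NM1 KO with no overlap between genotypes. Rag1 encodes the subunit that holds the catalytic site of the recombinase (ENSMUSG00000061311, chromosome 2, 101638282 to 101649501 on GRCm38). It had 43.3, 42.6 and 45.3 CPM in NM1 KO 1 to 3, against 17.4, 31.5 and 13.3 CPM in NM1 WT 1 to 3. The 3 knockout mice lay close together, while NM1 WT 2 stood well above the other 2 wild types and still below every NM1 KO mouse. The means were 43.7 ± 1.41 CPM in the NM1 KO mice and 20.7 ± 9.57 CPM in the NM1 WT mice (SD, n = 3 each), 2.10-fold higher in NM1 KO. This log2 fold change, 1.07 with SE 0.26, missed the threshold of 0.05 in the quasi-likelihood test of edgeR (adjusted p = 0.083). Without NM1 WT 2 it was 1.52 (SE 0.17, edgeR adjusted p = 0.00562) and passed. NM1 WT 2 was the only wild type with Y-linked transcripts. Wherever it is left out, for this gene and those below, genotype is partly mixed with Y-linked state. Without any other single library the log2 fold change of Rag1 ranged from 0.83 to 1.10 and did not pass.

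Rag2 encodes the partner subunit, which reads a histone mark through its PHD finger (ENSMUSG00000032864, chromosome 2, 101624718 to 101632529), and lies next to Rag1 on the opposite strand. It had 6.18, 5.71 and 5.82 CPM in NM1 KO 1 to 3 and 2.17, 3.48 and 2.23 CPM in NM1 WT 1 to 3, from 124 to 142 and 32 to 60 counts. NM1 WT 2 was again the highest wild type, below all 3 knockout mice. The log2 fold change was 1.16 (SE 0.35, 2.24-fold, edgeR adjusted p = 0.134), and without NM1 WT 2 it was 1.43 (adjusted p = 0.0576). Within a library, Rag1 CPM divided by Rag2 CPM gave 7.01, 7.45 and 7.79 in NM1 KO 1 to 3 and 8.03, 9.07 and 5.94 in NM1 WT 1 to 3, and the NM1 KO ratios all lay inside the wild type range. Exons of the gene B230118H07Rik overlap 1.21% of the exonic bases of Rag1 and 6.07% of those of Rag2. That gene averaged 8.80 CPM in the NM1 KO mice and 10.4 CPM in the NM1 WT mice, and how reads of the overlap were assigned was not tested.

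**Figure D1:**
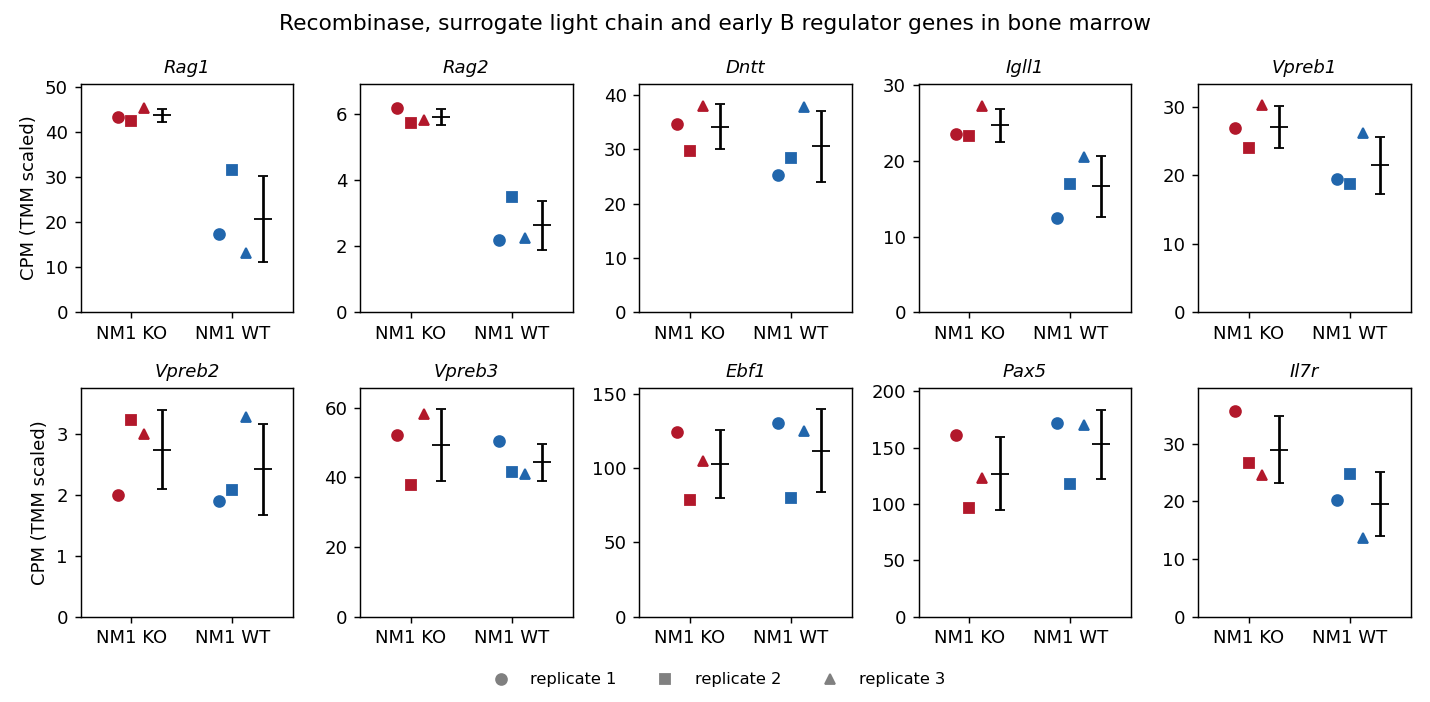
Level of each of the 10 genes in CPM, from 0 on a linear axis, in the 3 NM1 KO mice (red, left) and the 3 NM1 WT mice (blue, right), with replicates by symbol and the mean ± SD in black. Rag1, Rag2 and Igll1 do not overlap between genotypes, and in Rag1 and Rag2 the highest wild type is NM1 WT 2, at 31.5 and 3.48 CPM.

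Dntt, which encodes terminal transferase, showed no such separation (ENSMUSG00000025014, chromosome 19, 41029275 to 41059525). It had 34.6, 29.8 and 38.0 CPM in NM1 KO 1 to 3, against 25.2, 28.5 and 37.8 CPM in NM1 WT 1 to 3. NM1 WT 1 and NM1 WT 2 lay below every knockout mouse, and only NM1 WT 3 lay within the knockout range. Of the wild types NM1 WT 3, which had the least Rag1, had the most Dntt. Its log2 fold change was 0.16 (SE 0.18, edgeR adjusted p = 0.706). With single libraries left out, it ranged from 0.04, without NM1 WT 1, to 0.34, without NM1 WT 3.

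Of the 4 surrogate light chain genes and their relatives, Igll1 was higher without overlap and Vpreb1 less so, while Vpreb2 and Vpreb3 overlapped widely. Igll1, the gene of lambda 5 (ENSMUSG00000075370, chromosome 16, 16860671 to 16863985), had 23.6, 23.3 and 27.2 CPM in NM1 KO 1 to 3 and 12.5, 16.9 and 20.5 CPM in NM1 WT 1 to 3. Every knockout mouse lay above every wild type, here with NM1 WT 3 as the highest wild type and not NM1 WT 2. The log2 fold change was 0.57 (SE 0.20, 1.49-fold, edgeR adjusted p = 0.183), and it ranged from 0.40 to 0.74 with single libraries left out.

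Vpreb1, a gene for the variable-like part of the surrogate chain, lies beside Igll1 (ENSMUSG00000059305, chromosome 16, 16868403 to 16870843). Its values were 26.9, 24.0 and 30.3 CPM in NM1 KO 1 to 3 and 19.4, 18.8 and 26.2 CPM in NM1 WT 1 to 3. Only NM1 WT 3 reached into the knockout range. The log2 fold change was 0.34 (SE 0.18, adjusted p = 0.375). Top3b exons on the other strand overlap 9.01% of the exonic bases of Vpreb1, and without a stated strand setting reads there cannot be told apart.

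Vpreb2, a copy of Vpreb1 (ENSMUSG00000059280, chromosome 16, 17980428 to 17981273), had 2.00, 3.22 and 3.00 CPM in NM1 KO 1 to 3 and 1.90, 2.09 and 3.28 CPM in NM1 WT 1 to 3. These rest on only 28 to 70 counts per library, and the genotypes overlapped (log2 fold change 0.18, SE 0.43, edgeR adjusted p = 0.884). With single libraries left out, that value ranged from 0.03, without NM1 WT 1, to 0.45, without NM1 WT 3. The longest coding transcripts of Vpreb1 and Vpreb2 matched at 97.4% of 759 aligned bases, with a longest identical run of 196 bases, and 156 bases of the promoter windows printed above aligned at 98.1% identity. Reads that fall in such runs fit both genes, so how the deposited counts divide between the pair is uncertain. Vpreb3, a related protein that binds the heavy chain inside the cell and stays on in later B cells (ENSMUSG00000000903, chromosome 10, 75943057 to 75949657), had 52.0, 37.8 and 58.1 CPM in NM1 KO 1 to 3 and 50.5, 41.6 and 40.9 CPM in NM1 WT 1 to 3. Its groups overlapped, and the log2 fold change was 0.15 (SE 0.17, edgeR adjusted p = 0.707). With single libraries left out, that of Vpreb3 ranged from 0.02, without NM1 KO 3, to 0.32, without NM1 KO 2.

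The lineage factors Ebf1 and Pax5 were the only 2 of the 10 with a lower mean in NM1 KO. Ebf1, the factor that opens the B cell programme (ENSMUSG00000057098, chromosome 11, 44617317 to 45008091), had 124, 78.4 and 105 CPM in NM1 KO 1 to 3 and 130, 79.6 and 125 CPM in NM1 WT 1 to 3. Replicate 2 was the lowest mouse in both genotypes, and the ranges nearly coincided. The log2 fold change was -0.12 (SE 0.20, adjusted p = 0.817), and it was -0.31 without NM1 WT 2. Its sign turned without NM1 KO 2 (0.04) and with Y-linked state added to the model (0.03). Ebf1 lies on the same chromosome as Myo1c.

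Pax5, the factor that holds B cell commitment (ENSMUSG00000014030, chromosome 4, 44524757 to 44710487), had 161, 96.8 and 123 CPM in NM1 KO 1 to 3, against 172, 118 and 170 CPM in NM1 WT 1 to 3. The lowest values were those of NM1 KO 2 and NM1 WT 2, and the groups overlapped. The log2 fold change was -0.27 (SE 0.20, adjusted p = 0.530). It was -0.48 without NM1 KO 1 and -0.42 without NM1 WT 2, against -0.10 without NM1 KO 2 and -0.18 without NM1 WT 1, and it did not pass with any single library left out. Exons of 5730488B01Rik and Gm12462 on the other strand overlap 7.18% and 1.41% of the exonic bases of Pax5.

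Il7r, the alpha chain of the interleukin 7 receptor (ENSMUSG00000003882, chromosome 15, 9505788 to 9530176), had 35.7, 26.6 and 24.7 CPM in NM1 KO 1 to 3 and 20.2, 24.7 and 13.6 CPM in NM1 WT 1 to 3. NM1 WT 2 was level with NM1 KO 3 to 3 digits, and the other 2 wild types lay below all knockout mice. Its log2 fold change, 0.57 with SE 0.23, missed the threshold (edgeR adjusted p = 0.232). Without NM1 WT 2 it was 0.78 (adjusted p = 0.0928), and without NM1 WT 3 it was 0.36 (adjusted p = 0.513).

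Taking the 10 genes as a list, 0 passed in edgeR's quasi-likelihood test, 8 had a higher mean in NM1 KO, and 4 had an unadjusted p under 0.05: Rag1, Rag2, Igll1 and Il7r. Of all 15069 tested genes 0.776% passed, 0.591% higher and 0.186% lower in NM1 KO, and 2525 had an unadjusted p under 0.05. Values did not overlap between genotypes in 3 of the 10, all higher in NM1 KO, against 10.8% of all tested genes that were higher without overlap and 9.75% that were lower. The median log2 fold change was 0.26 over the 10 genes and 0.00185 over all tested genes. Some other tests called more genes. With DESeq2, which called 5.49% of all genes, Rag1 (adjusted p = 0.00218) and Rag2 (adjusted p = 0.0398) passed. Rag1 alone of the 10 passed with edgeR's likelihood ratio test, which called 3.59% of all genes, with no filter on low counts (4.67%) and without NM1 WT 2 (2.18%).

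**Figure D2:**
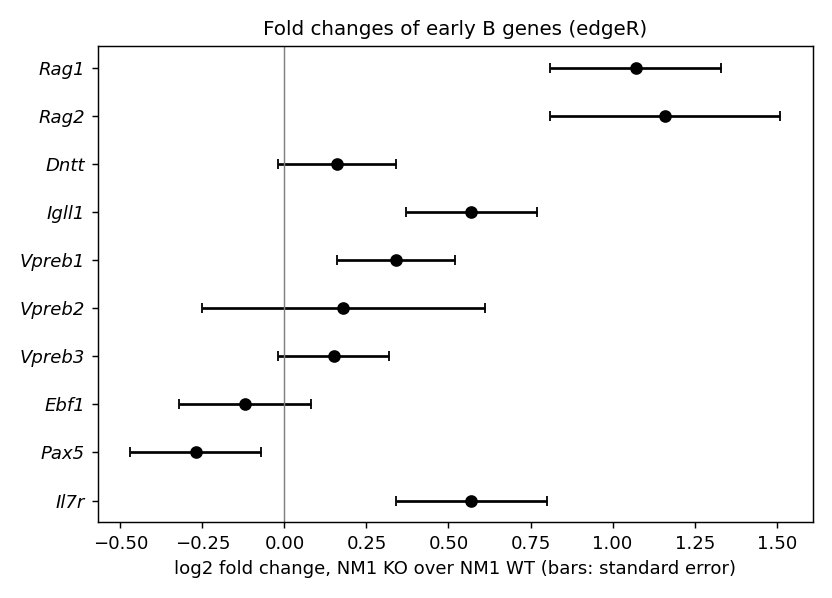
Log2 fold change of each gene, NM1 KO over NM1 WT, from edgeR over 3 mice a group, with bars of 1 standard error and a line at 0. Rag2 (1.16) and Rag1 (1.07) lie farthest from 0, Igll1 and Il7r both lie at 0.57, and Ebf1 (-0.12) and Pax5 (-0.27) lie below 0.

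The wild type mice differed among themselves more than the knockout mice did in most of these genes. The SD of log2 CPM over 3 mice was larger in NM1 WT than in NM1 KO for 8 of the 10 genes, the exceptions being Vpreb3 and Pax5, and 54.4% of all tested genes had a larger SD in NM1 WT. The median SD of the 10 genes came to 0.23 among NM1 KO mice and 0.36 among NM1 WT mice, beside 0.231 among NM1 KO mice and 0.250 among NM1 WT mice over all tested genes. Rag1 was the extreme case, with an SD of 0.05 in NM1 KO and 0.64 in NM1 WT. These SDs stood at percentile 3.85 of all tested genes in NM1 KO and at percentile 82.7 in NM1 WT. The highest Rag1 level was 1.06 times the lowest among knockout mice and 2.38 times the lowest among wild types. Rag2 had an SD of 0.06 in NM1 KO and 0.37 in NM1 WT. Each SD comes from 3 mice, and the difference in spread between genotypes was not tested.

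The wild types did not rank in 1 common order. Among them NM1 WT 2 was highest for Rag1, Rag2 and Il7r, NM1 WT 3 for Dntt, Igll1, Vpreb1 and Vpreb2, and NM1 WT 1 for Vpreb3, Ebf1 and Pax5. The SDs of the 3 genes with NM1 WT 2 on top stood at percentiles 66.1 to 82.7 of all tested genes in NM1 WT. Those of Vpreb2 and Ebf1, with other wild types on top, lay in the same range, at 69.4 and 68.5. Leaving NM1 WT 2 out moved the median SD in NM1 WT to 0.29, and leaving out NM1 WT 3 moved it to 0.25. Without NM1 WT 1 it rose to 0.41.

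**Figure D3:**
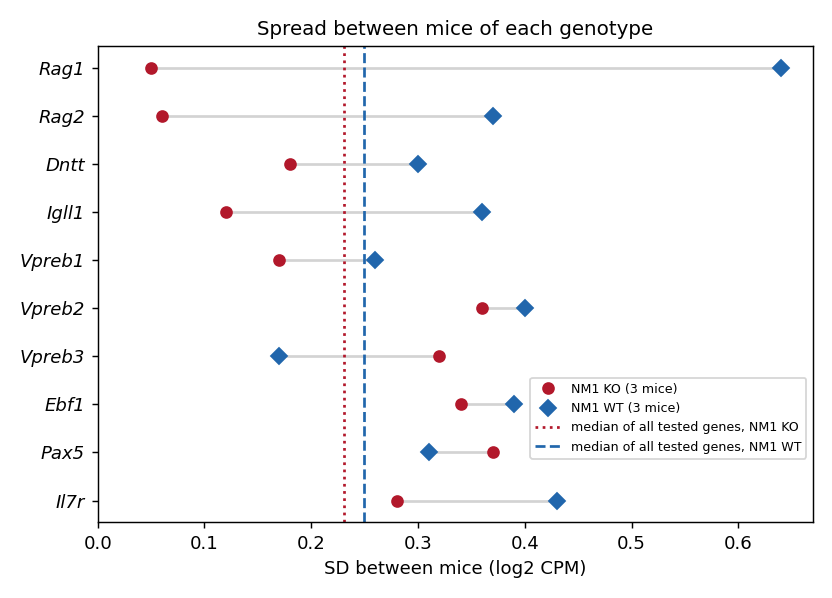
SD of log2 CPM between the 3 mice of each genotype for each gene, NM1 KO as red circles and NM1 WT as blue diamonds, with vertical lines at the median SD of all tested genes (0.231 in NM1 KO, 0.250 in NM1 WT). The gap is widest for Rag1, at 0.05 in NM1 KO and 0.64 in NM1 WT, and the order is reversed for Vpreb3 and Pax5.

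Y-linked transcripts split the mice in a way that cuts across genotype, so the levels were also set side by side within each state. Among the mice with Y-linked transcripts, Rag1 had 42.6 to 43.3 CPM in 2 NM1 KO mice and 31.5 CPM in 1 NM1 WT mouse, a log2 difference of 0.44. Among those without, it had 45.3 CPM in 1 NM1 KO mouse and 13.3 to 17.4 CPM in 2 NM1 WT mice, a log2 difference of 1.57. Rag2 differed by 0.75 with and 1.36 without Y-linked transcripts, Igll1 by 0.47 and 0.76, and Il7r by 0.32 and 0.57. All 4 kept their direction in both states, and so did Dntt, Vpreb1, Vpreb2 and Vpreb3. Ebf1 and Pax5 did not, at 0.31 and 0.08 with Y-linked transcripts and at -0.28 and -0.47 without. Each state holds too few mice for a test. With the state as a second term, the log2 fold change of Rag1 was 1.00 (SE 0.22, edgeR adjusted p = 0.087).

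Per length of exon, as FPKM, the genes spanned a wide range of levels in both genotypes. Vpreb3 was highest, at 57.4 ± 12.2 FPKM in NM1 KO and 51.6 ± 6.26 FPKM in NM1 WT, and Rag2 lowest, at 1.72 ± 0.0718 FPKM in NM1 KO and 0.767 ± 0.215 FPKM in NM1 WT (SD, n = 3 each). From the top the order by mean over all 6 mice was Vpreb3, Vpreb1, Pax5, Dntt, Ebf1, Igll1, Il7r, Rag1, Vpreb2 and Rag2. The steps from Vpreb3 to Vpreb1, from Igll1 to Il7r and from Vpreb2 to Rag2 held with no overlap in either genotype. Pax5 and Dntt, Ebf1 and Igll1, and Il7r and Rag1 overlapped in both. Rag1 stood above Vpreb2 in all 3 NM1 KO mice, at 6.62 ± 0.214 against 3.61 ± 0.858 FPKM, but in NM1 WT their levels were 3.14 ± 1.45 and 3.19 ± 0.986 FPKM and overlapped. The counts of Vpreb2 carry the uncertainty given above.

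None of the other early B genes passed the threshold in edgeR's test: 0 of 13 genes of V(D)J cleavage and end joining, 0 of 16 of the pre-BCR complex and its signalling, 0 of 21 early B transcription factors, 0 of 17 of the interleukin 7 receptor pathway and 0 of 22 other pro-B and pre-B markers. Their median log2 fold changes were 0.07, 0.16, 0.12, -0.12 and 0.19, in the same order. The end joining genes with the smallest p were Paxx, a factor that steadies the joining complex, at -0.45 (adjusted p = 0.211), and Xrcc5, the Ku80 subunit that holds broken ends, at 0.55 (adjusted p = 0.315). In the signalling list these were Pik3cd, the catalytic chain of a PI3 kinase, at -0.44 (adjusted p = 0.183), and the kinase gene Fyn at 0.31 (adjusted p = 0.310).

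Among the transcription factors, Id3, an inhibitor of E proteins, had 38.8 ± 10.01 CPM in the NM1 KO mice and 22.6 ± 0.244 CPM in the NM1 WT mice (log2 fold change 0.78, adjusted p = 0.0786), with no overlap. Spi1, the myeloid and B cell factor PU.1, had a log2 fold change of -0.57 (adjusted p = 0.113). The E protein genes Tcf3 and Tcf12, named here after their values were seen, had 204 ± 14.8 and 47.9 ± 2.04 CPM in the NM1 KO mice, against 150 ± 7.88 and 33.7 ± 5.62 CPM in the NM1 WT mice. Neither overlapped between genotypes, and neither passed (adjusted p = 0.113 and 0.136). Of the 21 listed factors, 5 were higher and 1 was lower in NM1 KO without overlap, beside 10.8% and 9.75% of all tested genes. In the interleukin 7 list, Jak3, a kinase of the receptor, had a log2 fold change of -0.64 (adjusted p = 0.0901), and Crlf2, the receptor chain for the related cytokine TSLP, one of -0.43 (adjusted p = 0.158). Tifa and Bst1 led the other pro-B and pre-B markers, at 0.42 (adjusted p = 0.149) and -0.72 (adjusted p = 0.152).

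Il7, the ligand of the receptor, also named after its values were seen, was low, at 0.696, 3.50 and 3.85 CPM in NM1 KO 1 to 3 and 0.679, 0.695 and 3.02 CPM in NM1 WT 1 to 3. Of 10 genes of the stroma that supports B cells, 4 rose and 0 fell: Cxcl12, Kitl, Lepr and Vcam1. Cxcl12, the chemokine that holds B cell precursors in the marrow, averaged 1040 ± 332 CPM in the NM1 KO mice and 393 ± 64.8 CPM in the NM1 WT mice (SD, n = 3 each, log2 fold change 1.40, edgeR adjusted p = 0.0185). Kitl, the gene of stem cell factor, averaged 37.6 ± 11.3 CPM in the NM1 KO mice and 13.7 ± 3.49 CPM in the NM1 WT mice (log2 fold change 1.45, edgeR adjusted p = 0.026). Lepr, the leptin receptor gene that marks niche stroma, and Vcam1, an adhesion molecule for blood cell precursors, had log2 fold changes of 1.26 (adjusted p = 0.0286) and 1.39 (adjusted p = 0.0396). The summed level of this list was 1091 to 2113 CPM in the NM1 KO mice and 490 to 653 CPM in the NM1 WT mice, and its part in the differences of the early B genes was not tested.

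Rag1, Rag2, Dntt and Il7r are also used outside the B lineage. Of 18 tested T cell and thymocyte genes 1 rose, Cd4 (log2 fold change 1.19, SE 0.21, edgeR adjusted p = 0.0303), and 0 fell. Of all tested genes 0.591% rose and 0.186% fell. The list as a whole did not share the rise of Cd4, with a median log2 fold change of 0.08 and 10 of 18 positive. Its summed level was 176 to 235 CPM in the NM1 KO mice and 161 to 213 CPM in the NM1 WT mice. Ptcra, likewise named after its values were seen, defines the thymocytes that rearrange their receptor. It had 0 counts in all 3 NM1 KO libraries and reached at most 0.272 CPM in the NM1 WT mice. The 0 counts allow up to 0.131 to 0.141 CPM if single counts are independent (3 counts, counting error only). Low counts were nearly all even, so this bound is higher if both mates of a pair were counted. Whether Ptcra differed between genotypes cannot be told at these levels. Plasmacytoid dendritic cell genes, 0 of 10 of which passed, summed to 732 to 831 CPM in the NM1 KO mice and 965 to 1177 CPM in the NM1 WT mice. Ly6c2 was the largest part of these sums. It had 372.5 to 503.8 CPM in the NM1 KO mice and 552.1 to 687.7 CPM in the NM1 WT mice. Without overlap, 2 of the 10 were lower in NM1 KO, Ly6c2 and Siglech, beside 9.75% of all tested genes. Tcf4, Bst2 and Irf7, next in level after Ly6c2, overlapped between genotypes. All 10 had a negative log2 fold change, with Ly6c2 at -0.53 (adjusted p = 0.114) and Irf7, an interferon response factor, at -0.80 (adjusted p = 0.127). Of 11 genes of innate lymphoid cells and common lymphoid progenitors 0 passed, with sums of 264 to 354 CPM in the NM1 KO mice and 263 to 315 CPM in the NM1 WT mice. The smallest p among them were those of Il1rl1, a cytokine receptor gene, at 0.65 (adjusted p = 0.1555), and Gata3, a factor of T cells and innate lymphoid cells, at -0.68 (adjusted p = 0.460). Id2 and Ly6d were the largest parts of these sums, averaging 90.6 and 107.7 CPM in the NM1 KO mice. In the NM1 WT mice they averaged 91 and 96.0 CPM. Gata3 averaged 3.81 CPM in the NM1 KO mice and 6.15 CPM in the NM1 WT mice, so the sums say little about it.

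Mature B cell genes (0 of 14 passed, median 0.00) summed to 832 to 1203 CPM in the NM1 KO mice and 1050 to 1199 CPM in the NM1 WT mice, and plasma cell genes (0 of 8) to 575 to 1009 CPM in the NM1 KO mice and 642 to 735 CPM in the NM1 WT mice. The smallest p were those of Cd37 at -0.52 (adjusted p = 0.185) and Ms4a1, a B cell surface protein gene, at 0.33 (adjusted p = 0.319) among mature B cell genes, and those of Sdc1 at 0.42 (adjusted p = 0.421) and Jchain, the joining chain of secreted antibody, at 0.35 (adjusted p = 0.529) among plasma cell genes. Neutrophil genes, which fill a large part of marrow RNA, had a median of -0.47 (0 of 13 passed) and summed to 39430 to 51250 CPM in the NM1 KO mice and 51270 to 69730 CPM in the NM1 WT mice. All 13 had a negative log2 fold change, among them Lcn2, a granule protein gene, at -0.72 (adjusted p = 0.0879), and Mmp9, a gelatinase gene, at -0.65 (adjusted p = 0.1504). Erythroid genes (0 of 12 passed) had a median of 0.26 and summed to 79560 to 84910 CPM in the NM1 KO mice and 64490 to 89710 CPM in the NM1 WT mice, with Car2, a carbonic anhydrase gene, at 0.63 (adjusted p = 0.0867). Proliferation genes (0 of 20 passed) had a median of 0.14, with Mki67, a marker of cycling cells, at 0.46 (adjusted p = 0.128) and Rrm2, a ribonucleotide reductase subunit, at 0.32 (adjusted p = 0.214), and summed to 5202 to 6884 CPM in the NM1 KO mice and 5044 to 5449 CPM in the NM1 WT mice. The part of these cell types in the levels of the early B genes was not tested. Markers of all these lineages were detected in all 6 libraries.

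The 10 genes did not share a single pattern over the 6 libraries. With each gene's log2 CPM centred on its own mean, the root mean square difference from the mean profile of the 10 was 0.146 for Vpreb1, the nearest, and 0.536 for Rag1, the farthest. Among 12254 other protein-coding genes with a mean of at least 1 CPM, the 10 nearest to that mean profile were Snx25, Tmem106b, Cfap97, Gcdh, Clk3, Slc52a2, Dennd4a, G2e3, Elmod3 and Bora, at differences of 0.054 to 0.079. They were picked for this closeness, which also sets their log2 fold changes of 0.28 to 0.48.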

How the data were processed

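RNA of whole bone marrow from 6 mice was measured, 1 library per mouse. The authors deposited unnormalised read counts, 1 value per Ensembl gene. The submitters' processing notes name HTSeq, HISAT2 2.0.4, Trimmomatic 0.36, SAMtools 0.1.19 and FastQC, and the builds mm10 and GRCm38. The strand setting is not given in the sources used here. Low counts were nearly all even (1.14 to 1.37% odd below 20), as when both mates of a pair are counted, so halved counts were an alternative. Of 46603 genes, 46091 matched GENCODE M21, and the rest held at most 0.0532% of a library.

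Genotypes were compared on the counts with edgeR 4.0.16 (R 4.3.3), quasi-likelihood test, TMM scaling and filterByExpr, which kept 15069 genes with 99.9% of counts. Adjusted p is Benjamini-Hochberg over all of them. Log2 CPM used a prior count of 2, and FPKM used merged exon lengths. Alternatives were other scalings and filters, DESeq2 1.42.0, the likelihood ratio test, limma-voom (limma 3.58.1), halved counts, covariates and left-out libraries. The members and gene lists were chosen with earlier results of these data known. Genes named from a list are those that passed or, with none, the 2 of smallest p. Tcf3, Tcf12, Il7 and Ptcra fall outside this rule and were named after their values were seen. Levels relative to other B lineage genes, and some genes that this rule names, are not reported here.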

Additional observations from a re-analysis of the deposited data

How the results depend on the processing

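Of the 10 genes, 9 kept their direction under all 18 alternatives. Ebf1 reversed to 0.03 with Y-linked state as a covariate and to 0.04 without NM1 KO 2. With single libraries left out, Ebf1 ranged from -0.31 to 0.04, Rag1 from 0.83 to 1.52 and Rag2 from 1.04 to 1.43. From 0 in the main test, the count of early B genes past the threshold became 2 with DESeq2, and 1, Rag1, with the likelihood ratio test and with no low-count filter, and 0 to 1 with single libraries left out. Rag1 then had log2 fold changes of 1.07 with DESeq2, 1.07 with the likelihood ratio test and 1.09 with no filter, and Rag2 1.16 with DESeq2. Over all alternatives the adjusted p ranged from 2.60e-07 to 0.318 for Rag1 and from 0.0398 to 0.422 for Rag2. The median log2 fold change of the 10 ranged from 0.18 to 0.41 and their median SD in NM1 WT from 0.25 to 0.41. The count over all genes, 117, was 1138 with no filter, 794 with DESeq2, 541 with the likelihood ratio test, 37 with limma-voom, 60 with the Y-linked state, 207 without haemoglobin, immunoglobulin and mitochondrial genes, and 26 to 344 with single libraries left out. The causes were not tested. With the replicate block, 421 genes and 1 of the 10, Rag1 (1.16), passed. Replicate numbers do not pair these mice in the labels, and deviations of same-numbered mice correlated at 0.064, 0.115 and 0.061, each higher than with other numbers. The low counts of Vpreb2 and Rag2 limit the precision of their values.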
